A study of Mus musculus with 12 samples.

Results

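The effect of the Tnfr2 locus on gene expression in TNF-stimulated glomeruli was determined over all 12 of the 12 arrays of the study. The 6 arrays of Tnfr2-/- and Tnfr1,2-/- glomeruli, which lack Tnfr2, were compared with the 6 arrays of wildtype and Tnfr1-/- glomeruli, which carry it. Presence or absence of Tnfr1 was the other factor of this 2 × 2 layout, and each of 45037 probe sets of the array was tested, not a single probe set per gene. Only the genotype labels of the arrays chose the groups; no measured value was used.

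Glomeruli, the filtering capillary tufts of the kidney, had been isolated with magnetic beads from male mice of 6 to 8 weeks. Cultures of 5000 glomeruli were deprived of serum and then kept for 12 hours with murine TNF at 50 ng/ml, so every array, wildtype included, came from TNF-exposed tissue and no unstimulated array was analysed here. The labels give the genotypes as B6 wild-type, B6.129-Tnfrsf1atm1Mak (Tnfr1-/-), B6.129-Tnfrsf1btm1Mwm (Tnfr2-/-) and the cross of both mutants (Tnfr1,2-/-), with 3 arrays each. The designation B6.129 names a C57BL/6 background onto which an allele made in cells of another strain was bred. Both alleles are germline deletions, present in every cell type of the glomerulus, and the methods state that double mutants and wildtype controls were bred from the single mutants. The isolated tufts lack Bowman's capsule. The 3 preparations of a genotype are called independent, but whether each came from separate mice is not stated, so a p-value covers no more than the variation from sample to sample, which may be technical.

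TNF acts through 2 receptors. TNFR1, encoded by Tnfrsf1a, is widely expressed, carries a death domain and drives NF-κB-dependent transcription of chemokines and adhesion molecules. TNFR2, encoded by Tnfrsf1b, has no death domain, recruits TRAF2 and responds best to membrane-bound TNF. In the kidney both receptors are known from glomerular cells, and TNFR2 expression rises under inflammatory conditions.

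Values are the deposited log2 RMA values, on which a difference of 1 is a doubling of signal. The array medians lay between 5.59 and 5.64. Arrays fell into 2 sets, lower and higher, by the difference between the 3′ and 5′ probe sets of the beta-actin control. This difference can grow with RNA breakdown. The same difference for the spike-in controls, which are not tissue RNA, was also split: 1.51 to 2.34 in the first set and 2.75 to 3.72 in the second. The source of the split was not tested. All arrays of replicate number 1 fell into the first set and all of number 3 into the second. Those of number 2 fell into the first set, apart from Tnfr1,2-/- replicate 2. The arrays without Tnfr2 were 3 of the first set and 3 of the second, and those with Tnfr2 were 4 and 2. Of the leading principal component (47.3% of the total variance), 93.2% lay between these sets and 4.28% between arrays with and without Tnfr2. Of the next component (15.3%), 87.1% lay between the Tnfr1 genotypes and 0.0163% between those of Tnfr2. By the brightest probe set of each gene, 16 of 16 measured podocyte genes, 18 of 19 endothelial genes and 14 of 16 mesangial genes lay above the array median. So did 10 of 11 parietal epithelial, 15 of 18 macrophage and 7 of 17 tubular genes. The share of all genes above the median, counted in this way, was not determined.

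One library went against its label. All 12 are labelled male, but the library labelled Tnfr1-/- replicate 1 had a log2 value of 10.4 for Xist, the RNA that silences an X chromosome in female cells, against 4.35 to 5.36 on the other arrays (probe set 1436936_s_at). Its Y-linked genes Eif2s3y (7.87 against 8.41 to 9.58) and Kdm5d (6.57 against 7.05 to 8.97) were measured but were the lowest of all arrays. This library belongs to the group with Tnfr2, and results are therefore also given without it.

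Few transcripts differed between glomeruli without and with Tnfr2. At an adjusted p under 0.05 (limma, Benjamini-Hochberg over all probe sets) together with a change of at least 1.5-fold, 8 probe sets were called, 5 of them lower and 3 higher in glomeruli without Tnfr2. These were 0.0111% and 0.00666% of all probe sets. The lower ones belonged to Rab6b (2 probe sets), Znf41-ps, Zfp991 and Tnfrsf1b itself, the higher ones to Angptl7, Zfp991 and a probe set assigned to both Rps19 and Rps19-ps3. An unadjusted p under 0.05 was found for 435 probe sets, the called ones included (0.966% of those tested), 203 lower and 232 higher. The same model called 645 probe sets for Tnfr1, 421 lower and 224 higher, or 1.43% of all, on the same arrays and with the same group sizes. The median standard error of a Tnfr2 difference was 0.13 on the log2 scale. For 77.4% of probe sets the 95% interval of the difference lay within 1.5-fold in either direction, and for 93.9% within 2-fold.

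**Figure D1:**
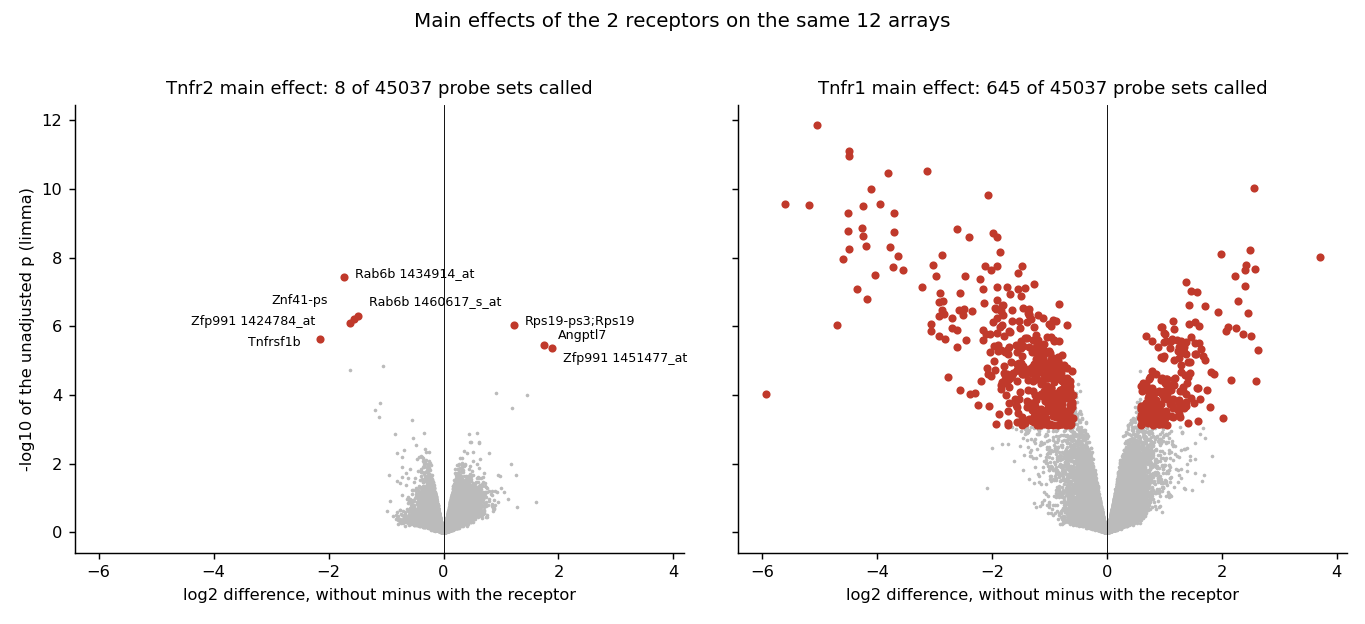
Log2 difference without minus with the receptor (x axis) against the −log10 of the unadjusted limma p (y axis) for each of 45037 probe sets, for Tnfr2 on the left and Tnfr1 on the right, on the same axes. Red points are the 8 and the 645 called probe sets; most Tnfr2 differences lie close to 0, while Tnfr1 differences spread in both directions.

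Tnfrsf1b was measured first, since it checks the labels. Its called probe set had log2 values of 7.77, 7.71 and 7.41 in wildtype and 7.32, 8.36 and 6.76 in Tnfr1-/- glomeruli. In Tnfr2-/- glomeruli the values were 5.66, 4.95 and 5.38, and in Tnfr1,2-/- glomeruli 5.51, 5.37 and 5.57. Every array without Tnfr2 was below every array with it, and all 12 libraries fitted their Tnfr2 label. The transcript fell by 2.15 (SE 0.24, 4.43-fold, adjusted p = 0.0170 by limma). The other Tnfrsf1b probe set, 1448951_at, had a mean of 6.30 with and 6.03 without Tnfr2, a difference of -0.28 (95% interval -0.58 to 0.03) that did not pass the test, and its arrays overlapped. Which part of the gene either probe set covers was not determined here. Tnfrsf1a, the other receptor, was called in the Tnfr1 comparison (-1.13, adjusted p = 0.00533 by limma), while its Tnfr2 difference was -0.14 (95% interval -0.51 to 0.23).

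Rab6b, a small GTPase of the Golgi apparatus known mainly from neurons, was the transcript with the smallest p. The first of its called probe sets had log2 values of 9.78, 9.24 and 9.32 in wildtype and 9.82, 10.3 and 9.77 in Tnfr1-/- glomeruli. It had 8.14, 8.15 and 7.97 in Tnfr2-/- and 7.76, 7.84 and 7.99 in Tnfr1,2-/- glomeruli. The arrays did not overlap, and Rab6b fell by 1.72 (SE 0.12, 3.30-fold, adjusted p = 0.00161 by limma). All 4 probe sets of the gene had separate groups of arrays. Probe set 1460617_s_at ranged from 7.02 to 7.72 (median 7.22) without and from 8.38 to 9.08 (median 8.76) with Tnfr2, and fell by 1.49 (adjusted p = 0.00829 by limma). The other 2 were not called: 1437107_at differed by -1.63 (adjusted p = 0.0826) and 1455924_at by -1.19 (adjusted p = 0.805), both by limma. Probe set 1437107_at passed with the array set as a block (-1.53, adjusted p = 0.00406 by limma). The gene lies on chromosome 9, away from both receptor genes.

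Rab GTPases as a family, the switches of vesicle traffic, showed little else. Of 127 probe sets of 56 Rab genes, the 2 of Rab6b were called, both lower, and 6 (4.72%) had an unadjusted p under 0.05, against 0.966% of all probe sets. These 6 were the 4 of Rab6b and 2 of Rab4a, a GTPase of endosomal recycling. The median difference over the family was -0.01. Of 73 probe sets for partners and regulators of Rab6, none was called and none had an unadjusted p under 0.05.

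Angptl7, a secreted protein of the angiopoietin-like family, was higher without Tnfr2. Values of probe set 1451478_at ranged from 6.86 to 8.56 (median 8.04) without and from 5.89 to 6.47 (median 6.18) with Tnfr2. The lowest value without Tnfr2 was that of Tnfr2-/- replicate 1, and the groups did not overlap. The transcript rose by 1.75 (SE 0.20, 3.35-fold, adjusted p = 0.0224 by limma). None of the other angiopoietin-like probe sets was called: of 16 in the list, the one of Angptl7 was the only one with an unadjusted p under 0.05.

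Of the other calls, 3 carried symbols of zinc finger genes, which encode DNA-binding proteins that often repress transcription, and all 3 lay near Tnfrsf1b. The pseudogene Znf41-ps ranged from 5.40 to 5.99 without and from 6.80 to 7.62 with Tnfr2, and fell by 1.55 (SE 0.15, adjusted p = 0.00829 by limma). Zfp991 was called in both directions. The lower of its called probe sets ranged from 4.02 to 4.86 without and from 5.45 to 6.22 with Tnfr2, and fell by 1.63 (SE 0.16, adjusted p = 0.00829 by limma). The other, 1451477_at, ranged from 7.48 to 8.57 without and from 5.31 to 7.21 with Tnfr2, and rose by 1.89 (SE 0.22, adjusted p = 0.0234 by limma). A further probe set of the gene, 1440518_at, differed by 0.02 (95% interval -0.23 to 0.28). Its values, 3.80 to 4.41 over all arrays, lay below the array medians, so it may hold little signal. The 2 called probe sets thus gave opposite answers for the same symbol. Zfp991 belongs to a cluster of near-identical zinc finger genes, so which of the copies each probe set reports is uncertain.

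The last call was probe set 1460442_at, assigned to the ribosomal protein gene Rps19 and its pseudogene Rps19-ps3, so its signal cannot be given to a single gene. It ranged from 6.53 to 7.23 without and from 5.31 to 5.89 with Tnfr2, and rose by 1.22 (SE 0.12, 2.33-fold, adjusted p = 0.00829 by limma).

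**Figure D2:**
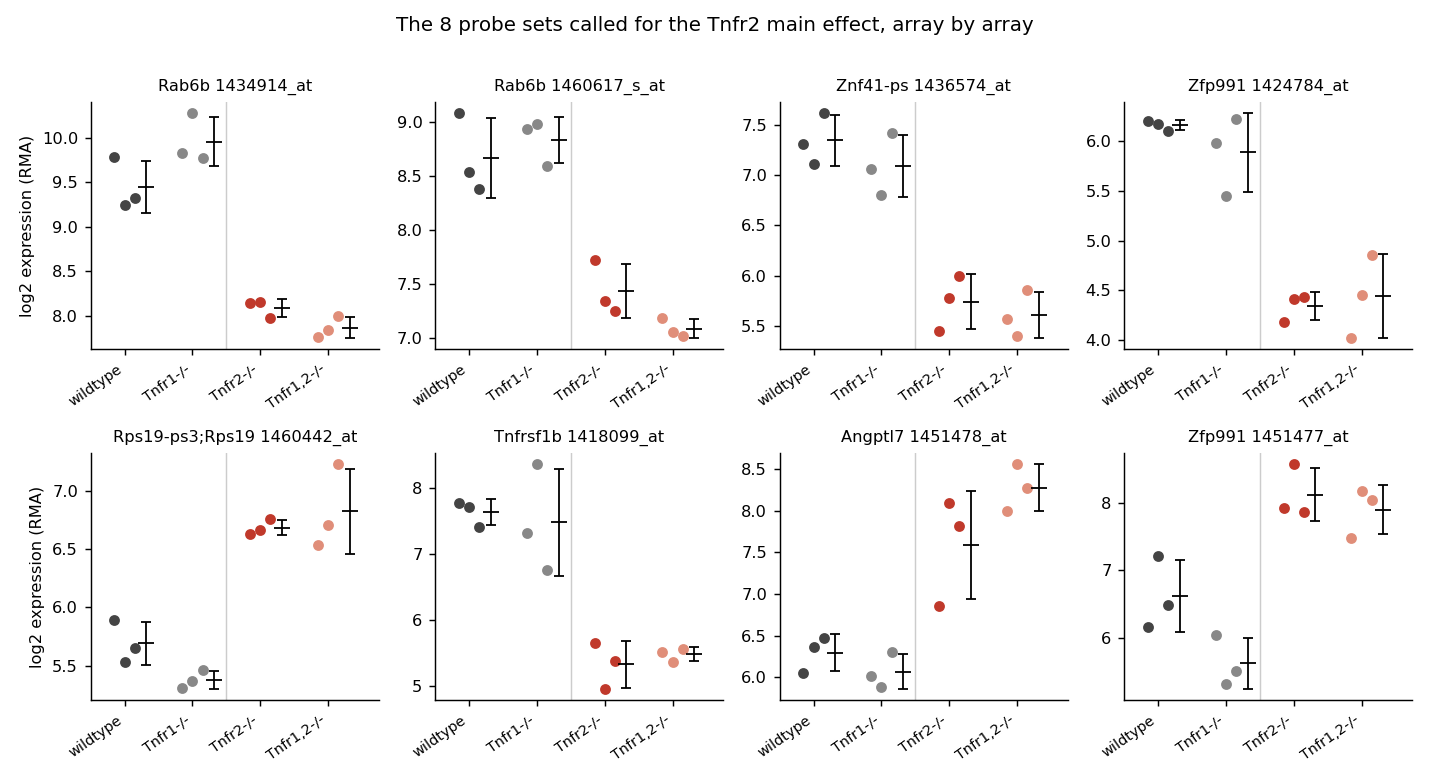
Log2 RMA value of each array (y axes, separate scale per panel) for the 8 called probe sets, by genotype (x axes). Points are the 3 arrays of a genotype and bars the mean ± SD (n = 3); in every panel the 6 arrays right of the grey line, which lack Tnfr2, do not overlap the 6 left of it.

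For all 8 called probe sets the 6 arrays without Tnfr2 did not overlap the 6 with it. Among all probe sets this held for 19 with every array without Tnfr2 below (0.0422%) and for 10 with every such array above (0.0222%). Omission of any single array left between 5 and 7 probe sets called. Both called Rab6b probe sets, Znf41-ps, the lower Zfp991 probe set and 1460442_at remained called at each of the 12 omissions. Tnfrsf1b was lost at 8 of them (adjusted p up to 0.0906), Angptl7 at 10 and Zfp991 1451477_at at 9 (both up to 0.114, limma), with differences that kept their direction. Without Tnfr1-/- replicate 1, 6 of the 8 calls remained. Those lost were Tnfrsf1b (-2.19, adjusted p = 0.0577 by limma) and Angptl7 (1.73, adjusted p = 0.101 by limma).

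Promoters of the called genes were read from RefSeq to show what lies upstream of them. Of the 5 genes with a single symbol, 3 had an entry. The 250 bases before the transcription start are given, 5′ to 3′ on the strand of the gene. They were searched on both strands for the NF-κB consensus, since NF-κB is the transcription factor that TNF receptors are best known to activate, and a match would stand in capitals.
Tnfrsf1b (GRCm38.p6, chr4:145246871-145247120, minus strand): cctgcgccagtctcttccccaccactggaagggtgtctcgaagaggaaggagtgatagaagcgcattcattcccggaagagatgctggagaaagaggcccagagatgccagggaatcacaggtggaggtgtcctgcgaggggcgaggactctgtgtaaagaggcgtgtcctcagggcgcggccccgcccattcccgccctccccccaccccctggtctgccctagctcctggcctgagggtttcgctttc
Rab6b (GRCm38.p6, chr9:103111824-103112073, plus strand): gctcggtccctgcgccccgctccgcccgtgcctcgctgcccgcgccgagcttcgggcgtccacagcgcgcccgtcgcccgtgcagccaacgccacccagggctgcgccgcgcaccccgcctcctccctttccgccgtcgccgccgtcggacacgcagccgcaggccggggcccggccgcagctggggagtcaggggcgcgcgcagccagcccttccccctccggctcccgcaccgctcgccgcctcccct
Angptl7 (GRCm38.p6, chr4:148500463-148500712, minus strand): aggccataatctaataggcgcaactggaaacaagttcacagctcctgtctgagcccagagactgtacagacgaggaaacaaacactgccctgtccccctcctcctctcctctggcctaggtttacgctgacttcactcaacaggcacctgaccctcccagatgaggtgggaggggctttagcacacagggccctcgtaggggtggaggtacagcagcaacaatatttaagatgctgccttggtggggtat
None of the 3 windows held a match. Of 32851 promoter windows of that length 7.25% did, so 3 windows are too few to show a difference from that share. The upstream sequence of Rab6b was 80.8% G and C, that of Tnfrsf1b 62.8% and that of Angptl7 54.4%.

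Of the 8 called probe sets, 5 lay near Tnfrsf1b on chromosome 4. Positions were taken from the RefSeq annotation of GRCm38.p6, which gave 34741 probe sets with a single symbol a single place. Within 10 Mb on either side of Tnfrsf1b lay 444 probe sets of 239 genes, of which 5 (1.13%) were called, 17 (3.83%) had an unadjusted p under 0.05 and 8 had arrays that did not overlap. On the rest of chromosome 4, 0 of 1650 probe sets were called and 0.606% had an unadjusted p under 0.05. On the other chromosomes 2 of 32647 (0.00613%), both of Rab6b, were called, and 0.916% had such a p. All 17 probe sets lay within 5 Mb, where they made up 9.09% of 187. Of them 13 were lower and 4 higher without Tnfr2.

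The 17 included genes that were not called. Zfp979, another zinc finger gene of the cluster, ranged from 2.85 to 3.57 without and from 3.58 to 5.02 with Tnfr2, a difference of -1.10 (adjusted p = 0.580 by limma). Its arrays did not overlap, and its level lay below the array medians throughout. Miip, which encodes an inhibitor of cell migration, differed by -0.85 and -0.72 at its 2 probe sets. Smaller differences were found for the collagen-modifying enzyme Plod1 (-0.53), the retinal reductase Dhrs3 (-0.73) and the angiotensin receptor-associated protein Agtrap (-0.32). The complement protease Masp2 had a difference of 0.58, and Zfp982 had 0.47 at a probe set and -0.32 at another. A probe set assigned to Rex2, Zfp980 and Zfp600 together, 1438237_at, has no single place and is not among the 17. It differed by 1.19 (adjusted p = 0.786 by limma) and had arrays that did not overlap.

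**Figure D3:**
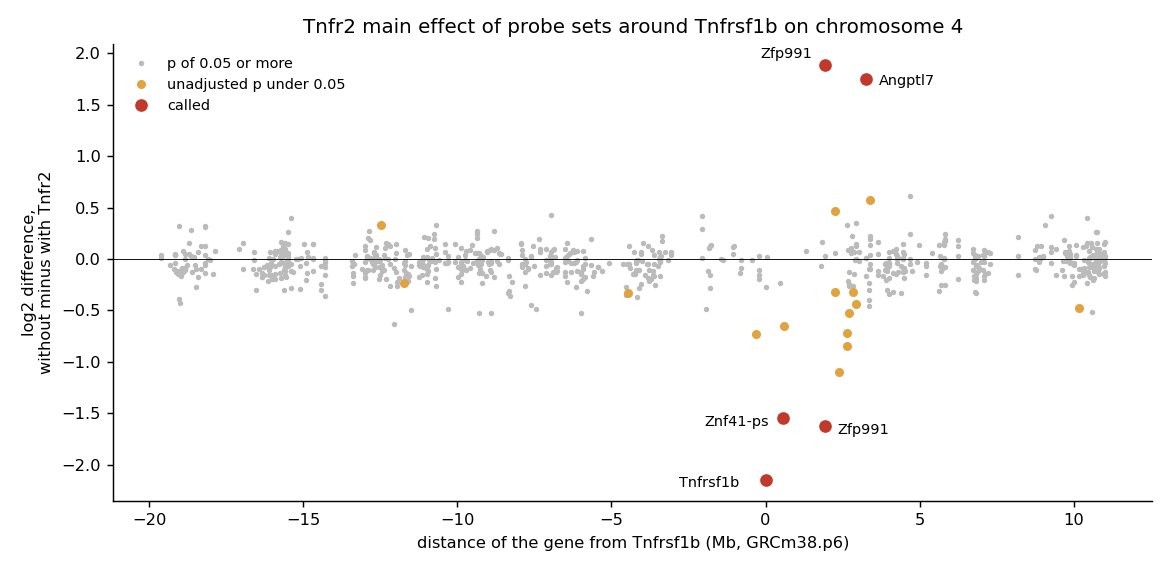
Log2 difference without minus with Tnfr2 (y axis) against the distance of the gene from Tnfrsf1b in Mb, GRCm38.p6 (x axis), for probe sets within 20 Mb on chromosome 4. Red points are the 5 called probe sets and orange points those with an unadjusted p under 0.05; all called ones lie between Tnfrsf1b and 3.27 Mb beyond it.

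Arrays without Tnfr2 carry the targeted allele together with any sequence of the donor strain that still flanks it, in Tnfr2-/- and Tnfr1,2-/- glomeruli alike. For genes near Tnfrsf1b, absence of the receptor and a different sequence around it therefore cannot be told apart on these arrays. Tnfr1-/- glomeruli, also of B6.129 designation, had Znf41-ps at 7.10 ± 0.31 (SD, n = 3) against 7.35 ± 0.26 in wildtype, 5.74 ± 0.27 in Tnfr2-/- and 5.61 ± 0.23 in Tnfr1,2-/- glomeruli. Their targeted gene, Tnfrsf1a, lies on chromosome 6, so these values cannot separate the 2 for genes near Tnfrsf1b.

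The Tnfr2 effect is the mean of 2 comparisons that share no array, so their values can be set side by side. Tnfr2-/- against wildtype glomeruli (Tnfr1 intact) had 1 called probe set (0.00222%), which carries no symbol in the platform annotation and appears by its identifier in the plot of both comparisons. The study lists this probe set under a RefSeq transcript of Mcub (earlier Ccdc109b), a subunit of the mitochondrial calcium uniporter, and it is called Mcub here. Tnfr1,2-/- against Tnfr1-/- glomeruli (no Tnfr1) also had 1 (0.00222%), the first probe set of Rab6b. The 8 probe sets called over all arrays had the same direction in both. They were chosen by the mean of these 2 differences, which favours such agreement, so it is no separate support. Tnfrsf1b differed by -2.30 with Tnfr1 and by -2.00 without it, Rab6b by -1.36 and -2.09, and Angptl7 by 1.29 and 2.20. The lower Zfp991 probe set differed by -1.82 and -1.44, and Znf41-ps by -1.61 and -1.49. Over all probe sets the differences of the 2 comparisons had a Pearson r of -0.02 and a Spearman rho of -0.05. These describe the probe sets, which share arrays and are not independent. The median standard error in either comparison, 0.19, exceeded the median absolute difference (0.09 with Tnfr1 intact, 0.14 without Tnfr1). An r near 0 therefore cannot tell whether smaller effects were shared. An unadjusted p under 0.05 was found for 288 probe sets with Tnfr1 intact and for 1041 without Tnfr1. The array sets were balanced in the former (2 and 1 in both genotypes) but not in the latter (2 and 1 in Tnfr1-/-, 1 and 2 in Tnfr1,2-/- glomeruli). With the array set as a block these counts were 593 and 1451, and 3 and 5 probe sets were called, Znf41-ps in both. Without the block, both comparisons had such a p for 24 in the same direction and for 17 in opposite directions. The 24 include the 8 called probe sets, and the number to be found by chance was not determined.

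Whether the Tnfr2 effect depended on Tnfr1 was tested as the interaction. No probe set was called (0% of 45037, limma), the smallest adjusted p was 0.733, and 639 had an unadjusted p under 0.05. The median standard error of an interaction was 0.27, so that for 23.7% of probe sets the 95% interval lay within 1.5-fold. The smallest p belonged to the Mcub probe set called with Tnfr1 intact. It had 8.37, 8.77 and 8.48 in wildtype, 9.07, 8.69 and 9.0 in Tnfr1-/- and 8.87, 9.32 and 8.52 in Tnfr1,2-/- glomeruli, but 6.29, 6.54 and 6.45 in Tnfr2-/- glomeruli. Only the 3 Tnfr2-/- arrays were low. The difference was -2.11 with Tnfr1 intact (adjusted p = 0.0254 by limma) and -0.01 without Tnfr1. The interaction, 2.09 (95% interval 1.47 to 2.72), had an adjusted p of 0.733, and the Tnfr2 difference over all arrays, -1.06, had 0.0719 (limma). The rest of the 5 probe sets with the smallest interaction p had another pattern, with differences of opposite sign with and without Tnfr1. These were Prkch (0.55 and -0.44), Slc35e4 (-0.33 and 0.60), 1447348_at (0.34 and -0.49) and 1440337_at (-0.40 and 0.30). Rab4a was not among these 5 and was named from the list of Rab GTPases. At 1449048_s_at its order of arrays was similar to that of Mcub: 8.36, 7.93 and 8.25 in Tnfr2-/- glomeruli and between 8.91 and 9.78 on all other arrays. Its difference was -0.92 with Tnfr1 intact and -0.17 without Tnfr1 (interaction 0.75, 95% interval 0.26 to 1.25), with an adjusted p of 1.0 for the interaction by limma.

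**Figure D4:**
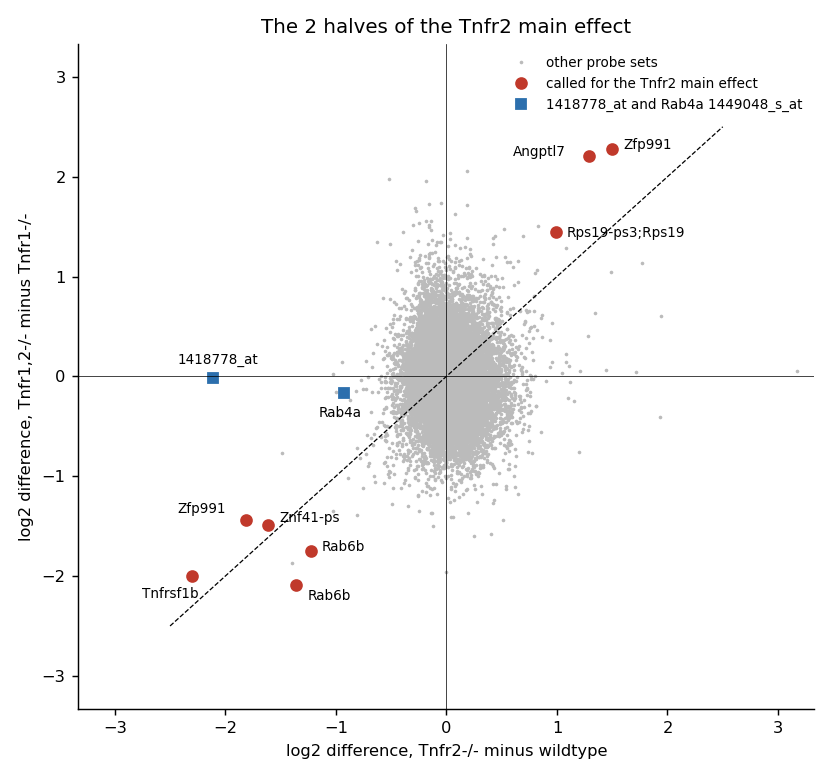
Log2 difference of Tnfr1,2-/- minus Tnfr1-/- glomeruli (y axis) against that of Tnfr2-/- minus wildtype glomeruli (x axis) for each probe set; the dashed line marks equal differences. The 8 called probe sets (red) lie in the lower left and upper right, while Mcub and Rab4a (blue squares) lie near 0 on the y axis.

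The inflammatory genes that the study also measured by PCR differed little by Tnfr2 on these arrays. The chemokine gene Ccl2, which recruits monocytes, had a median of 9.67 without and 10.1 with Tnfr2 and ranged from 6.63 to 12.8 and from 6.30 to 12.8. Both groups were split by Tnfr1: the means were 12.5 in wildtype and 12.5 in Tnfr2-/-, but 6.97 in Tnfr1-/- and 6.87 in Tnfr1,2-/- glomeruli. Its Tnfr2 difference was -0.06 (95% interval -0.63 to 0.50). For the adhesion molecule Vcam1 the difference was 0.02 (-0.63 to 0.68), and for Icam1, the ligand of leukocyte integrins, -0.22 (-0.61 to 0.17). The selectins Sele and Selp had -0.12 (-0.51 to 0.27) and 0.20 (-0.27 to 0.67). Ccl5, a T-cell chemokine, had -0.53 (-1.08 to 0.02), made up of -0.11 with Tnfr1 intact and -0.94 without Tnfr1. None of these 6 passed the test for Tnfr2 (adjusted p = 1.0 by limma for each), and the intervals for Ccl5, Vcam1, Ccl2, Icam1 and Selp reach beyond 1.5-fold. At a lower TNF concentration and a later time, the study's PCR found less Ccl2 mRNA in Tnfr2-/- than in wildtype glomeruli. Similar results are reported there for Ccl5, Icam1 and Vcam1. Secretion of Ccl2 and Ccl5 protein was also lower in Tnfr2-/- glomeruli in the study, at the TNF concentration and time of these arrays. Neither result can be seen in these array values. In the Tnfr1 comparison Ccl2 fell by 5.60, Vcam1 by 4.59, Icam1 by 3.7 and Ccl5 by 2.92, all called. Sele (-0.56, adjusted p = 0.255) and Selp (-0.71, adjusted p = 0.208) were not called for Tnfr1 either, by limma. Sele ranged from 3.48 to 4.65 without and from 3.62 to 4.84 with Tnfr2, below the array medians, so it may hold little signal. Selp ranged from 4.96 to 6.58 and from 4.98 to 6.18, near those medians. By PCR the study found both selectins induced by TNF in wildtype but not in Tnfr1-/- glomeruli. It proposes that low expression may have hidden this on the arrays. Their dependence on either receptor therefore cannot be judged from these array values.

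**Figure D5:**
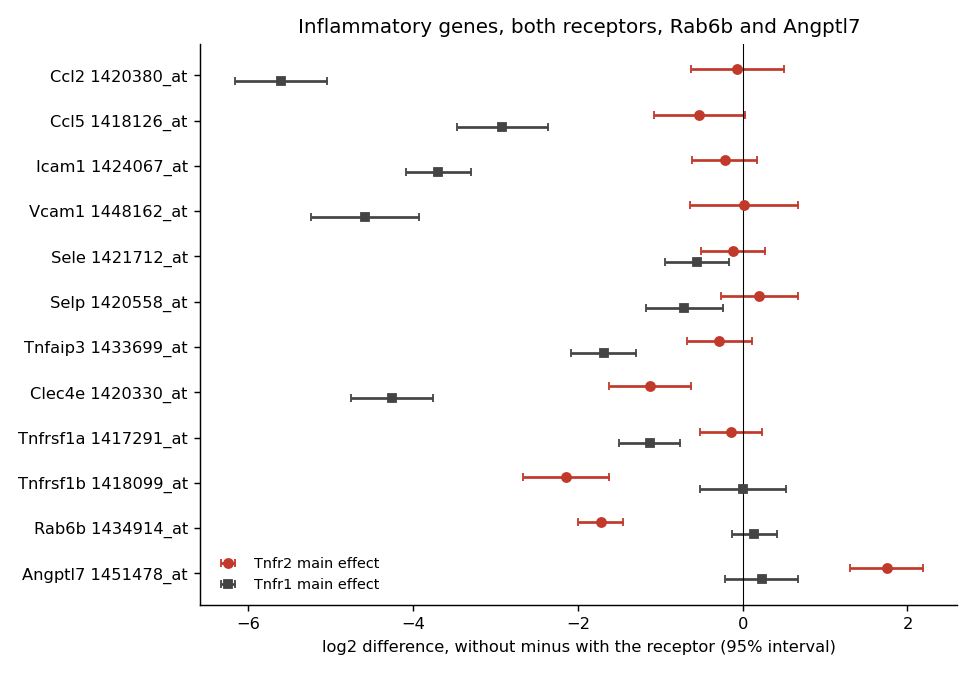
Log2 difference without minus with Tnfr2 (red circles) and without minus with Tnfr1 (grey squares), with 95% intervals (x axis), for the inflammatory genes, both receptor genes, Rab6b and Angptl7 (y axis). Intervals of Tnfr2 differences include 0 for Ccl2, Ccl5, Icam1, Vcam1, Sele, Selp, Tnfaip3 and Tnfrsf1a, but lie away from 0 for Clec4e, Tnfrsf1b, Rab6b and Angptl7.

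The transcripts that depended on Tnfr1 were examined next. Of 421 probe sets lower without Tnfr1, 0 were called for Tnfr2 (0.0111% of all probe sets were called lower and 0.00666% higher), and their median Tnfr2 difference was -0.02, with quartiles of -0.14 and 0.09. An unadjusted p under 0.05 was found for 4 lower and 10 higher, or 3.33% against 0.966% of all probe sets. For 64.4% the 95% interval lay within 1.5-fold, against 77.4% of all. Of 224 probe sets higher without Tnfr1, 0 were called, 4 lower and 3 higher (3.12%) had such a p, the median was 0.02 and the interval lay within 1.5-fold for 69.6%. Among the named members higher without Tnfr1, the Mcub probe set had the smallest Tnfr2 p (Tnfr1 difference 1.43, adjusted p = 0.000354 by limma). Among the named members lower without Tnfr1, Clec4e (Mincle), a lectin receptor of myeloid cells, had the smallest. It had 9.24, 10.13 and 9.59 in wildtype, 7.73, 8.97 and 7.80 in Tnfr2-/-, 5.06, 5.17 and 4.91 in Tnfr1-/- and 4.03, 4.42 and 4.37 in Tnfr1,2-/- glomeruli. Within each Tnfr1 genotype every array without Tnfr2 was below every array with it, but over all arrays the groups overlapped. The share of all probe sets with such an order was not determined, and Clec4e was picked by its small p. Its difference was -1.13 (95% interval -1.62 to -0.63), which did not pass the test over all probe sets (adjusted p = 1.0 by limma). The study lists a further probe set of Clec4e, which is not reported here. The Tnfr1 difference was -4.25.

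By functional list, few probe sets stood out, and all counts are to be read beside the 0.966% of all probe sets that had an unadjusted p under 0.05 and a median difference of -0.00149. Of 55 probe sets for TNF receptor signalling, only the called probe set of Tnfrsf1b was called or had such a p, and the median was -0.03. Of 46 for NF-κB components and feedback, 0 were called or had such a p (median -0.04). The feedback inhibitor Tnfaip3 had a difference of -0.28 (95% interval -0.68 to 0.11). Of 41 for chemokine ligands 0 were called and 3 (7.32%), all lower, had such a p (median -0.11). Of these, the endothelial chemokine Cx3cl1 differed by -0.27. It ranged from 3.69 to 4.20 without and from 4.08 to 4.35 with Tnfr2, below the array medians, so it may hold little signal. The list did not hold the platelet chemokine Ppbp, described below, which was higher without Tnfr2 (1.17, not called). Leukocyte adhesion molecules (33 probe sets, median 0.02), complement (31, 0.01), antigen presentation (45, -0.12) and apoptosis mediators (56, 0.00) had 0 called and 0 with such a p. Of 49 for cytokines and growth factors, 0 were called and 1, of Igf1 (0.57), had such a p. Of 75 for the cell cycle, 0 were called and 3 (4%), all higher, had such a p (median 0.10). Housekeeping genes (30 probe sets) had 0 of either kind. The list of the mitochondrial calcium uniporter held 18 probe sets by symbol, with 0 of either kind, but not the Mcub probe set above, whose p over all arrays was 1.4e-05 with no call.

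Cell type markers were compared in the same way. Of 219 probe sets in 8 lists, 0 were called. Podocyte markers had a mean log2 value of 10.3 (9.34 to 10.9) with and 10.6 (10.03 to 10.99) without Tnfr2, and 0 of 33 probe sets had an unadjusted p under 0.05. Parietal epithelial markers had 8.02 (7.59 to 8.49) with and 8.25 (8.01 to 8.60) without, and 2 of 23 probe sets (8.70%), both of Krt8 (0.73 and 0.66), had such a p, both higher. Endothelial markers had 8.84 with and 8.83 without, mesangial markers 9.61 and 9.60, tubular markers 5.77 and 5.77, and macrophage markers 7.57 and 7.52. Neutrophil markers had 5.08 and 5.12 and lymphocyte markers 5.35 and 5.28, with 2 of 12 and 6 of 14 measured genes above the array median. In bulk tissue a change in the number of cells and a change in RNA per cell cannot be told apart. The part of cell composition in the calls was not tested.

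In all, 245 probe sets differed by at least 1.5-fold, the 8 called ones included. Of those not called, Mcub (adjusted p = 0.0719) and Rab6b 1437107_at (adjusted p = 0.0826, both by limma) lay nearest to the threshold. The next, at a distance from it, were 1452426_x_at (7.09 to 7.87 without and 6.03 to 6.95 with Tnfr2, difference 0.92, adjusted p = 0.350) and 1455869_at (7.97 to 8.89 and 6.28 to 7.70, difference 1.45, adjusted p = 0.370), both by limma, with arrays that did not overlap. Ppbp, a platelet chemokine, ranged from 6.50 to 7.95 without and from 4.44 to 6.53 with Tnfr2, so that the groups overlapped (difference 1.17, SE 0.37, adjusted p = 1.0 by limma). With adjusted p-values of 1.0 by limma, the next smallest unadjusted p-values among uncalled probe sets of this size included those of Pisd-ps3 (-0.80), the Xlr3 family (0.80), Rab4a 1418341_at (-0.68), the lectin receptor Clec1a (0.63) and the unnamed 1441482_at (0.61) and 1424213_at (0.61).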

How the data were processed

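The authors hybridized RNA of TNF-exposed glomeruli to Affymetrix Mouse Genome 430 2.0 arrays, scanned them with GCOS 1.0 and normalized all 12 together by robust multichip average (RMAExpress 1.0 beta 2, Mouse 430_2.cdf). The deposited values are log2 RMA intensities per probe set and were used unchanged; RMA forces a common distribution on all arrays, so a global shift could not be seen. Of 45101 probe sets, 64 controls were left out. GEO's platform annotation gave a single symbol to 34945 of the rest, several to 932 and none to 9160. With limma 3.58.1 in R 4.3.3, means of the 4 genotypes were fitted to all arrays (8 residual and 2.73 prior degrees of freedom) and the Tnfr2 effect was the mean of its differences with and without Tnfr1. P-values are two-sided. The number of arrays limits the precision. Positions and promoter sequences came from RefSeq (GRCm38.p6). The code was tested on simulated data.

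Named were all probe sets of both receptors and of called genes, the 8 uncalled ones of smallest p and at least 1.5-fold in each direction, the 5 of smallest interaction p, genes of the study's PCR and Tnfr2-/- results, and the 2 of smallest p per list (markers also the 2 brightest). Xist, Eif2s3y, Kdm5d, Gbp2b and genes near Tnfrsf1b were chosen after their values were seen. The members and the 22 lists were chosen with earlier results of these data known. Alternatives were a probe set per gene, controls included, dim (log2 over 6 on fewer than 3 arrays) or cross-matching probe sets left out, an additive model, a variance trend, array weights, median centring, cyclic loess, other fold minimums, array set or beta-actin difference as terms, each set alone, a replicate block, other windows and omission of each array. The authors' significance analysis compared single genotypes and was not repeated.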

Additional observations from a re-analysis of the deposited data

Results flagged for a closer look

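Among the 6 arrays with or the 6 without Tnfr2, 3 values lay far from the others by Dixon's test. Of 22 groups of arrays tested, about 1 in 20 would be flagged by chance if the arrays of a group came from a single population. Each group holds both Tnfr1 genotypes, so that rate is only a rough guide. The rate does not cover Xist, which was added after its values were seen. Xist (1436936_s_at) had 10.4 in the library labelled Tnfr1-/- replicate 1, against 5.27 for the next highest array with Tnfr2. The lower called Zfp991 probe set had 5.45 in Tnfr1-/- replicate 2, the lowest array with Tnfr2, against 5.98 for the next one, and was still above the highest array without Tnfr2 (4.86). Probe set 1460442_at (Rps19 and Rps19-ps3) had 7.23 in Tnfr1,2-/- replicate 3, the highest array without Tnfr2, against 6.76 for the next one.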

How the results depend on the processing

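The 8 called probe sets kept their direction under each alternative run, and the interaction had 0 calls under each that fitted it. With 1 probe set per gene 5 were called (3 lower, 2 higher) of 18193 tested, since Rab6b and Zfp991 then count once and 1460442_at is left out. With either array set alone 0 were called, in either direction, by limma on 7 arrays (4 residual degrees of freedom, 1224 probe sets with an unadjusted p under 0.05) or 5 (2 degrees of freedom, 710); the first Rab6b probe set then differed by -1.73 and -1.64, Tnfrsf1b by -2.39 and -1.61. With the array set as a block 9 were called, and the comparisons within a Tnfr1 genotype had 3 (Tnfr1 intact) and 5 (no Tnfr1), an alternative added after the data were seen. Array weights gave 10. Omission of each array gave 5 to 7 called, 4 to 5 lower and 1 to 3 higher; 5 were called without wildtype replicate 1, Tnfr1,2-/- replicate 3, Tnfr2-/- replicate 2 or Tnfr2-/- replicate 3. Higher calls were 1 also without Tnfr1,2-/- replicate 2, Tnfr1-/- replicate 2 or Tnfr1-/- replicate 3. Replicate numbers were not taken to pair the arrays, since not every pair correlated above 0.1: deviations from genotype means correlated at 0.388 to 0.701 for number 1 and 0.537 to 0.791 for number 3, but at -0.31 to 0.31 for number 2, and 8 of 12 arrays correlated best with an array of their own number. The replicate block gave 13 called, 9 lower and 4 higher, including the 8 and adding Mcub (adjusted p 0.0478, limma), 1438237_at (0.0326), Miip (0.00993), Rab6b 1437107_at (0.00208) and Rab6b 1455924_at (0.0223). Windows of 5 and 20 Mb around Tnfrsf1b held the same number of calls, 5. Of 85 named probe sets that were not called, 19 changed sign under some alternative. All other alternatives gave 7 to 9 calls.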

Other observations

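Gbp2b, an interferon-inducible guanylate-binding protein gene, had the largest difference with Tnfr1 intact but no call. Its probe set 1420549_at had 10.8 and 11.5 in wildtype replicates 1 and 3 and 12.1, 11.8 and 12.3 in Tnfr2-/- glomeruli, but 4.39 in wildtype replicate 2. All arrays without Tnfr1 lay between 4.36 and 4.90. The difference of 3.17 between Tnfr2-/- and wildtype thus rests on wildtype replicate 2; the probe set was chosen after its values were seen.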
